A study of Mus musculus with 12 samples.

Results

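Polyadenylated RNA was sequenced from 12 samples of *Eomes*EGFP reporter mouse ESCs (strain background C57BL/6), with 3 replicates in each of 4 groups. WT and *Meteor* KO cells were taken at day 0, as undifferentiated ESCs, and at day 3 of differentiation, as embryoid bodies (EBs), suspended clusters of cells that start to produce the germ layers. Both genotypes carried the reporter and were maintained on mouse embryonic fibroblast feeders, and differentiation was induced in hanging drops in a medium with serum. In KO cells CRISPR-Cas9 nickase removed the *Meteor* enhancer upstream of *Eomes* together with the start of its lncRNA, and cells came from individually picked clones, although the labels do not say how many clones or separate cultures the 3 KO replicates stand for. P-values therefore measure the spread between these samples, which may be technical.

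The genes described are 9 genes of the Hedgehog pathway out of 46517 genes listed, namely *Shh*, *Ptch1*, *Hhip*, *Boc*, *Smo*, *Sufu*, *Gli1*, *Gli2* and *Gli3*. They were taken by name, with *Shh* as the starting point because its counts were lost from KO at day 3, so the comparison of KO with WT at day 3 is given for the 9 genes as a description without a test. All 9 were found by Ensembl identifier. All 9 exceeded 1 CPM (a count scaled to the size of its library) in at least 1 sample, as did 15673 genes in all. TMM factors were used for the CPM values given here but not for this filter. *Shh* passed that filter only through WT day 3, the group in which it was high, and its values are descriptions throughout.

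Hedgehog ligands are secreted proteins that carry instructions between cells, and in the gastrulating embryo *Shh* is made first by the node and notochord, the axial mesoderm. Without ligand, the receptor Ptch1 holds back the membrane protein Smo, and the transcription factors Gli2 and Gli3 are restrained by Sufu and partly cut into repressors. When ligand binds Ptch1, Smo enters the primary cilium and Gli proteins activate target genes, among them *Gli1*, *Ptch1* and *Hhip*, the last 2 of which feed back by binding ligand. *Gli1* and *Ptch1* are the targets most used as readouts of the pathway. The question followed here was whether these readouts fell where *Shh* was lost.

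In the GRCm38 genome with GENCODE M21 annotation, *Shh* (ENSMUSG00000002633) lies on the minus strand at chr5:28456815-28467256 and *Ptch1* (ENSMUSG00000021466) on the minus strand at chr13:63508328-63573598. *Hhip* (ENSMUSG00000064325) lies on the minus strand at chr8:79965851-80058006 and *Gli1* (ENSMUSG00000025407) on the minus strand at chr10:127329882-127341974. Counts are sums over the exons of each gene. *Shh* shares 28.3% of its exon bases with genes of the other strand, *Gli1* 6.55%, *Gli3* 1.96% and *Hhip* 1.93%. The library kit was stranded, but the strand setting of the counting is not given in the sources used here, so for these 4 genes the 2 strands may not be fully told apart. The longest transcripts of the 9 genes shared no word of 100 bases with another gene, except that *Smo* shared 0.462% of its words.

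The promoters of *Ptch1*, *Hhip* and *Gli2* are shown because *Ptch1* and *Hhip* are the feedback targets that the results turn on, and because *Gli2* was the only gene of the family whose promoter held the core letters of the Gli motif. Each is the 250 bases before the start of the gene in RefSeq (GRCm38.p6), on the minus strand, 5′ to 3′, and capitals mark a match to the core.
Ptch1 chr13:63565736-63565985: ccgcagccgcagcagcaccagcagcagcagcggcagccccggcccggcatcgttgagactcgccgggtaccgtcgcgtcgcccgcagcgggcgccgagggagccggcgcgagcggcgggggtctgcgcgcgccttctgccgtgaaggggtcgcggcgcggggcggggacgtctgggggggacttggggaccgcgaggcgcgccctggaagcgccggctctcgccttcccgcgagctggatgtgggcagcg
Hhip chr8:80058009-80058258: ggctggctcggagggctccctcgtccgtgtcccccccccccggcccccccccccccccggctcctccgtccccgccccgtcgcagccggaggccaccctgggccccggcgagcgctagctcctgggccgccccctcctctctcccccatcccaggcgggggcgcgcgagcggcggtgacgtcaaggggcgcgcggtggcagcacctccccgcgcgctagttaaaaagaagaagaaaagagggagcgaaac
Gli2 chr1:119053620-119053869: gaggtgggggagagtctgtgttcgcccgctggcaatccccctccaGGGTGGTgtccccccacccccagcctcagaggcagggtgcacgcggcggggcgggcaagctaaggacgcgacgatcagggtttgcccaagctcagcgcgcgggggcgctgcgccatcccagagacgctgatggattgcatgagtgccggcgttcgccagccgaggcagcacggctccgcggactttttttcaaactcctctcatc
The *Ptch1* sequence precedes a start site that lies 7863 bases inside the annotated gene. RefSeq promoters were matched for 6 of the 9 genes, namely *Ptch1*, *Smo*, *Gli2*, *Gli3*, *Hhip* and *Sufu*, and not for *Shh*, *Gli1* and *Boc*. The Gli motif GACCACCCA, searched on both strands, was in 0 of the 6, against 0.225% of 32851 promoters of the same length. Its core ACCACCC, which is contained in the longer motif, was in 1 of the 6, against 3.92% of all, and the match in *Gli2* is on the opposite strand and starts at base 46 of the sequence shown. The sequence was GC-rich in all 3 promoters, with 78.4% G and C in *Ptch1*, 76.0% in *Hhip* and 67.2% in *Gli2*.

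Between 17455927 and 23910943 reads per library were counted on genes. *Platr11*, the lincRNA annotated at the *Meteor* locus, lay between 0.513 and 6.12 CPM in WT libraries and at or below 0.0551 CPM in KO libraries. Summed over 6 pluripotency markers, day 0 libraries held 2616 to 3851 CPM and day 3 libraries 596 to 1187 CPM. At day 3, 6 streak and early mesoderm markers summed to 643 to 1423 CPM in WT and 73.6 to 149 CPM in KO, and 6 neural markers to 14.8 to 26.8 CPM in WT and 51.0 to 59.9 CPM in KO. WT day 3 replicate 3 stood apart, with 575 CPM over 6 markers of later mesoderm (*Hand1*, *Isl1*, *Gata4*, *Kdr*, *Foxf1*, *Tbx3*) against 43.4 and 46.0 CPM in the other 2 WT replicates. WT day 0 replicate 3 also differed, with 77.4 CPM of the streak gene *T* against 4.64 and 6.42 CPM in replicates 1 and 2.

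*Shh*, the ligand, was detected almost only in WT EBs at day 3. WT had 33, 19 and 244 counts in replicates 1, 2 and 3, or 1.54, 0.915 and 11.6 CPM, while the 3 KO libraries of the same day had 0 counts each. At day 0 the 3 WT libraries also had 0 counts, and KO had 1, 2 and 0 counts. The 3 counts of KO at day 0 are at the limit that a count of 0 allows, so the 3 groups other than WT day 3 cannot be put in order. Taking 3 counts over the 3 libraries as the limit for a group at 0 (0.0487 CPM in KO day 3 and 0.0532 CPM in WT day 0), *Shh* was at least 96.4-fold higher in WT than in KO at day 3 and at least 88.2-fold higher in WT at day 3 than at day 0. Replicate 3 held 82.4% of the WT counts, and without it the mean of WT fell from 4.69 to 1.23 CPM and the bounds became 25.2-fold and 23.1-fold. In these bulk samples fewer cells of a type and less RNA per cell cannot be told apart.

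**Figure D1:**
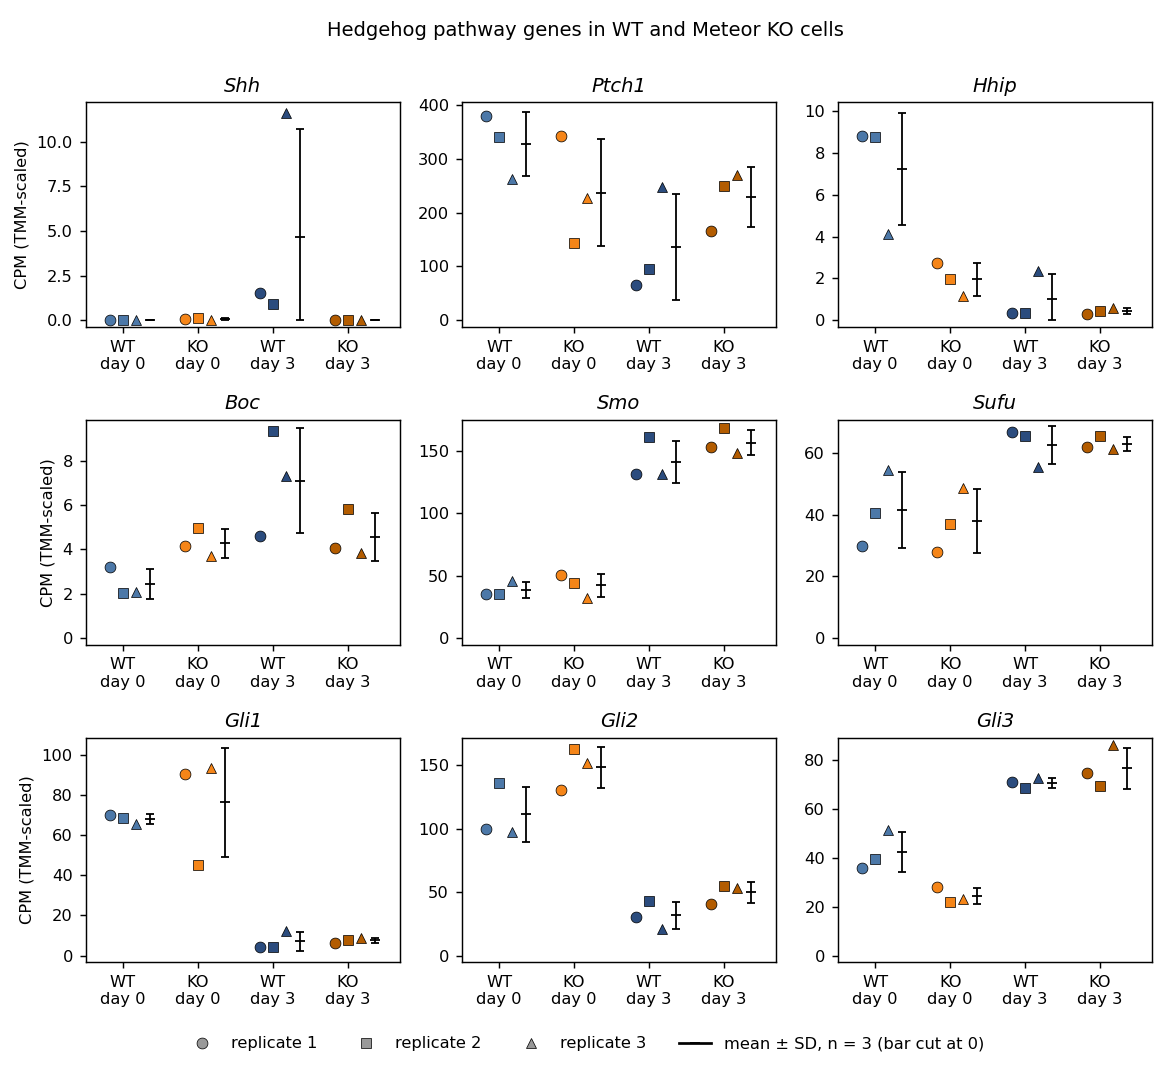
TMM-scaled CPM (linear axes) of the 9 Hedgehog genes in every library, by genotype and day, with symbols for the replicate number and a bar for the mean ± SD (n = 3, cut at 0). *Shh* is seen in WT day 3 and is carried mostly by replicate 3 (11.6 CPM), whereas *Gli1* is high at day 0 (45.1 to 93.5 CPM) and low at day 3 (4.28 to 12.4 CPM) in both genotypes.

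Markers of the axial mesendoderm were lower in KO at day 3, as were those of streak and later mesoderm. All 10 listed genes (*T*, *Noto*, *Foxa2*, *Foxj1*, *Chrd*, *Nog*, *Gsc*, *Cer1*, *Sox17*, *Lhx1*) fell in KO by edgeR's quasi-likelihood test. Of these *Noto* and *Cer1* passed the filter on low counts through WT day 3 libraries alone, so that at day 3 they could only be called downward. The other 8 also fell, against 16.7% of all tested genes, and their median log2 fold change was -5.44 against -0.002 over all tested genes. The study already reports *T*, *Gsc*, *Foxa2* and *Lhx1* as poorly induced in KO, so these counts are a description. They are not particular to this list. All 6 streak and early mesoderm markers, which share *T* with it, fell (median -6.10), as did 5 of 6 later mesoderm markers (median -4.59). Among those, *Mesp1*, *Isl1* and *Foxf1* passed the filter through WT day 3 alone. The later mesoderm markers *Hand1*, *Isl1* and *Foxf1* were high in WT replicate 3 only. They stood there at 105, 15.7 and 24.2 CPM, against at most 1.68 CPM in WT replicates 1 and 2. Their calls were lost without KO replicate 3 (adjusted p = 0.0689, 0.0576 and 0.167 in edgeR). The summed level of the 10 axial markers was 758 to 1342 CPM in WT and 13.0 to 24.1 CPM in KO at day 3. Within WT day 3 the axial markers did not move alike. Replicate 3, with the most *Shh*, had 0.41 times the *T* and 0.75 times the *Foxa2* of the mean of replicates 1 and 2. *Chrd* and *Gsc* were also lowest in replicate 3, and *Cer1* and *Lhx1* lay between the other replicates. *Noto* (2.47, 0.433 and 3.48 CPM in replicates 1, 2 and 3), *Nog* (1.07, 2.36 and 5.10), *Sox17* (14.8, 11.2 and 43.2) and *Foxj1* (36.8, 28.8 and 37.2) were highest in replicate 3. The same library had 12.6 times the *Kdr*, a receptor of endothelial and blood precursors. The part of either cell population in the level of *Shh* was not tested.

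*Ptch1*, the receptor and a target of the pathway, did not follow *Shh*. In WT ESCs at day 0, where *Shh* had no counts, *Ptch1* stood at 379, 340.5 and 262 CPM in replicates 1, 2 and 3. In KO ESCs it stood at 341.5, 144 and 226 CPM. At day 3 it was 65.3, 94.5 and 247 CPM in WT and 165, 249.5 and 269.7 CPM in KO. The highest levels were thus found at day 0 in WT and the lowest in WT EBs, the group with *Shh*, and these were the only 2 groups that did not overlap. At day 3 *Ptch1* was higher in KO in 3 of 3 pairs of the same replicate number, with means of 228 ± 55.6 and 136 ± 97.8 CPM (SD, n = 3). The log2 fold change was 0.84 (SE 0.44), and 1.56 without WT replicate 3. Across all genes at day 3, 30.9% were called, 14.3% upward and 16.7% downward, a background from which nothing is read for the genes chosen on this contrast.

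*Gli1*, the transcription factor whose transcription depends most on active Gli proteins, had 69.8, 68.5 and 65.3 CPM in WT and 90.4, 45.1 and 93.5 CPM in KO at day 0. At day 3 it had 4.43, 4.28 and 12.4 CPM in WT and 6.30, 7.62 and 8.66 CPM in KO. The days did not overlap in either genotype and the genotypes overlapped on both days. At day 3 the KO value lay above that of WT in 2 of 3 pairs, with a log2 fold change of 0.18 (SE 0.33) that became 0.74 without WT replicate 3 and -0.08 at the lowest when other libraries were left out. The genotype with no *Shh* counts thus had no lower mean of *Gli1*, at 7.53 ± 1.18 CPM in KO and 7.03 ± 4.64 CPM in WT (SD, n = 3).

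*Hhip*, a membrane protein that binds and withholds Hedgehog ligands, was a low gene. It had 8.79, 8.77 and 4.12 CPM in WT and 2.75, 1.98 and 1.17 CPM in KO at day 0, so that the genotypes did not overlap before differentiation. At day 3 it had 0.373, 0.337 and 2.38 CPM in WT, from 8, 7 and 50 counts, and 0.300, 0.455 and 0.583 CPM in KO, from 6, 8 and 14 counts. The difference at day 3 rested on 1 library. The log2 fold change of KO against WT was -1.13 (SE 0.80) with all libraries and 0.65 without WT replicate 3, and KO was lower in 2 of 3 pairs.

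In the library with the most *Shh*, the 3 readouts stood above the other WT EBs. WT day 3 replicate 3 had 3.10 times the *Ptch1*, 2.84 times the *Gli1* and 6.71 times the *Hhip* of the mean of replicates 1 and 2. *Smo* (0.900 times), *Sufu* (0.841), *Gli2* (0.573), *Gli3* (1.04) and *Boc* (1.04) lay lower or close to it. Some further targets had larger ratios in that library, with 50.7 for *Foxf1*, 247 for *Hand2* and 10.5 for *Nkx2-2*. These start from 4 and 16, 2 and 2, and 2 and 6 counts in replicates 1 and 2. *Foxf1* is also in the list of later mesoderm that set the library apart. Other tested targets did not rise alike. *Foxa2* (0.752 times) and *Ccnd2* (63.3 CPM against 73.6 and 105) were lower, and *Ccnd1*, *Bcl2*, *Mycn* and *Nkx6-2* differed little. *Nkx6-1* (1.05 CPM) and *Nkx2-9* (0.619 CPM) were highest there at low levels. These ratios describe 1 library with no replicate of its own, and the part of *Shh* or of the cells that carry the later mesoderm markers was not tested.

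**Figure D2:**
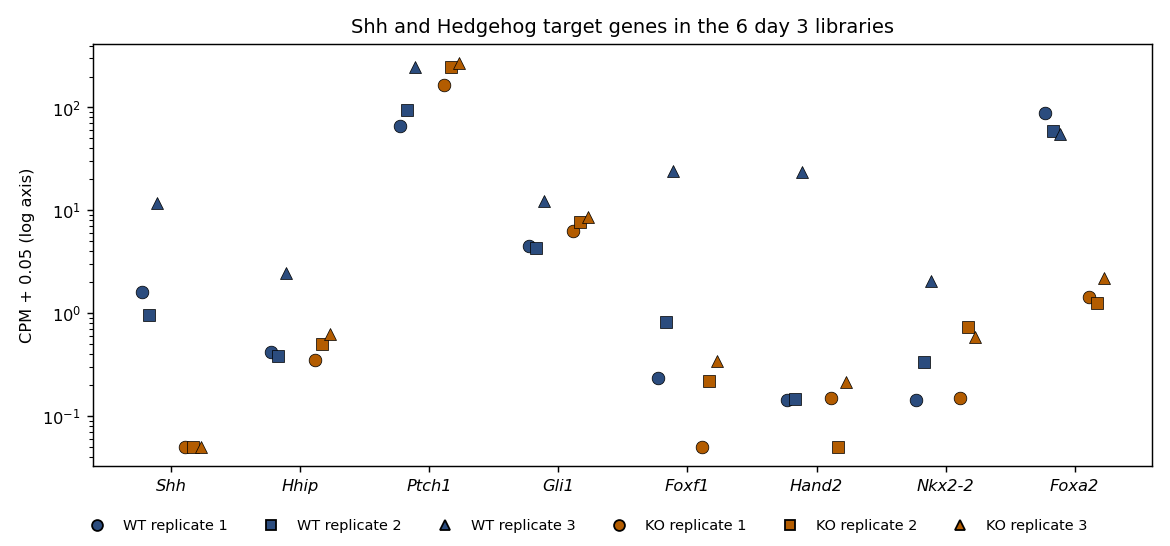
CPM plus 0.05 on a log axis for *Shh* and 7 target genes in the 6 EB libraries of day 3, blue for WT and orange for KO, with a symbol for each replicate. WT replicate 3 is above WT replicates 1 and 2 for each gene plotted except *Foxa2*, and in KO *Shh* has no counts while *Ptch1* (165 to 269.7 CPM) and *Gli1* (6.30 to 8.66 CPM) are above WT replicates 1 and 2.

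At day 0, before differentiation, *Gli3* was the gene of the 8 tested that fell in KO, in the fit with 1 replicate block over both days. *Gli3*, the main repressor of the Gli family, stood at 36.0, 39.5 and 51.5 CPM in WT and 28.2, 22.1 and 23.2 CPM in KO, with no overlap. Its log2 fold change was -0.78 (SE 0.13, adjusted p = 0.00307 by edgeR's quasi-likelihood test), lower in 3 of 3 pairs, and the adjusted p was at most 0.0195 when any 1 library was left out. This is 1 of 8 genes called downward and 0 upward, against 10.9% downward and 9.56% upward over all tested genes, 20.4% in either direction. The median log2 fold change was -0.02 for the 8 genes and -0.01 for all tested genes.

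The other 7 genes missed the threshold at day 0 in that fit. *Hhip* had the largest difference, with means of 7.23 ± 2.69 CPM for WT and 1.97 ± 0.786 CPM for KO (SD, n = 3). The fitted change was -1.89 on the log2 scale (SE 0.64, adjusted p = 0.0636 by edgeR). With the replicate block set within each day its adjusted p was 0.00154, with DESeq2 0.0268, with limma-voom 0.0308, with no filter on low counts 0.0180, with the 6 day 0 samples alone 0.000245, and without WT replicate 3 it was 0.0455 in edgeR, the direction being the same in each. *Boc*, a co-receptor that helps cells bind Shh, had 3.22, 2.04 and 2.06 CPM in WT and 4.15, 4.96 and 3.68 CPM in KO, again without overlap. Its log2 fold change of 0.78 (SE 0.29) had an adjusted p of 0.0885 in edgeR, 0.0232 with the block within each day, 0.0278 with the 6 samples alone and 0.0218 (log2 fold change 1.17) without WT replicate 1.

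*Gli2*, the main activator of the family, was higher in KO in 3 of 3 pairs at day 0, at 148 ± 16.3 against 111 ± 21.5 CPM (SD, n = 3), or 0.43 on the log2 scale (SE 0.17, adjusted p = 0.0955 in edgeR, 0.00364 with the 6 samples alone). *Ptch1* was lower in 3 of 3 pairs, with a log2 fold change of -0.50 (SE 0.43, adjusted p = 0.457 in edgeR, 0.0464 with the 6 samples alone). The size of that difference depended on single libraries, with log2 fold changes of -0.28, -0.34 and -0.81 without WT replicate 1, 2 or 3 and of -1.10, -0.22 and -0.31 without KO replicate 1, 2 or 3. In KO replicate 2 *Ptch1* was at 144 CPM and *Gli1* at 45.1 CPM, the lowest of day 0 for both. The same library had the highest sum of 10 feeder fibroblast markers, 796 CPM against 291 to 738 CPM in the other day 0 libraries. KO replicate 3, with the next highest sum of 738 CPM, had 226 CPM of *Ptch1* and 93.5 CPM of *Gli1*, the highest *Gli1* of day 0. The part of feeder cells in these values was not tested. *Smo*, *Sufu* and *Gli1* had log2 fold changes of 0.12 (SE 0.17), -0.13 (SE 0.20) and 0.10 (SE 0.30), each smaller than its standard error, and their signs turned when single libraries were left out.

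**Figure D3:**
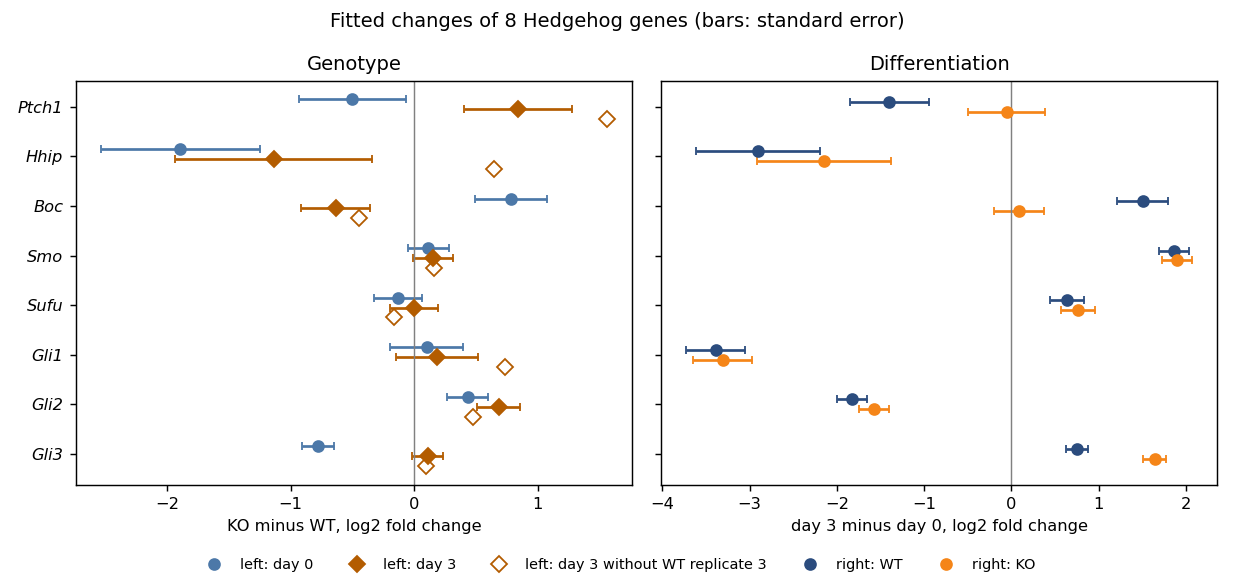
Fitted log2 fold changes (edgeR, bars for the standard error) of 8 Hedgehog genes, with KO against WT at each day on the left and day 3 against day 0 in each genotype on the right. Open diamonds show day 3 without WT replicate 3, where *Hhip* turns from -1.13 to 0.65 and *Ptch1* rises from 0.84 to 1.56, and the right side shows *Gli1* and *Gli2* low and *Smo* high at day 3 in both genotypes.

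From day 0 to day 3, *Gli1*, *Gli2* and *Hhip* fell and *Smo*, *Sufu* and *Gli3* rose in both genotypes. In WT all 8 genes passed the threshold of edgeR's quasi-likelihood test, 4 upward and 4 downward, against 30.7% upward and 25.5% downward over all tested genes, 56.2% in either direction. In KO 3 rose and 3 fell, which with 8 genes is near the 29.4% and 27.2% over all tested genes, 56.6% in either direction. Both comparisons use the day 3 libraries in which *Shh* was chosen, and differences between the genotypes in these changes were not tested for the 8 genes.

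*Gli1* fell in both genotypes. Its mean dropped from 67.9 ± 2.36 to 7.03 ± 4.64 CPM in WT and from 76.4 ± 27.1 to 7.53 ± 1.18 CPM in KO (SD, n = 3), and the log2 fold changes were -3.39 (SE 0.34, adjusted p = 3.2e-05 in edgeR) and -3.31 (SE 0.33, adjusted p = 2.42e-05). *Hhip* fell in WT by 2.90 on the log2 scale (SE 0.71, adjusted p = 0.00595 in edgeR), and its log2 fold change was -4.53 without WT day 3 replicate 3, where that of *Gli1* was -3.93. In KO its log2 fold change was -2.15 (SE 0.77, adjusted p = 0.0355 in edgeR), a call that was lost with limma-voom (0.0584) and without KO day 0 replicate 1 (0.123) or 2 (0.0886) or KO day 3 replicate 1 (0.116), 2 (0.0788) or 3 (0.0761). KO EBs, which had no *Shh* counts, had the lowest mean of *Hhip* of the 4 groups, at 0.446 CPM. Its place below WT EBs rested on WT day 3 replicate 3 (2.38 CPM). WT day 3 replicates 1 and 2, at 0.373 and 0.337 CPM, lay within the KO range of 0.300 to 0.583 CPM.

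*Ptch1* fell in WT, with a log2 fold change of -1.40 (SE 0.45, adjusted p = 0.0231 in edgeR), whereas in KO the change was -0.06 (SE 0.44, adjusted p = 0.924). The fall in WT was -2.08 without WT day 3 replicate 3. It no longer passed without WT day 0 replicate 1 (-1.22, adjusted p = 0.0679) or 2 (-1.22, 0.0839), or without WT day 3 replicate 1 (-0.96, 0.0825) or 2 (-1.25, 0.0866). In KO the interval of the change is wide, and leaving out 1 library gave values from -0.36 to 0.48.

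Of the components that carry the signal, *Smo*, the membrane protein that Ptch1 restrains, rose. It lay between 31.9 and 50.0 CPM in the 6 ESC libraries and between 131 and 168 CPM in the 6 EB libraries, without overlap. The log2 fold change was 1.86 (SE 0.17, adjusted p = 2.08e-05 in edgeR) in WT and 1.90 (SE 0.17, adjusted p = 1.14e-05) in KO, and at day 3 KO against WT differed by 0.15 (SE 0.16). *Sufu*, the cytoplasmic restraint on Gli proteins, rose less, from 41.7 ± 12.3 to 62.7 ± 6.10 CPM in WT (log2 fold change 0.63, SE 0.20, adjusted p = 0.0193 in edgeR) and from 37.9 ± 10.4 to 63.1 ± 2.35 CPM in KO (0.76, SE 0.20, adjusted p = 0.00732). The call in WT was lost with the 6 WT samples alone (0.0872) and without WT day 0 replicate 1 (0.0900) or 2 (0.0657) or WT day 3 replicate 1 (0.0850) or 2 (0.0552), while that in KO was at most 0.0401.

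The Gli factors went in opposite directions. *Gli2* was at 99.8, 136 and 97.6 CPM in WT and 130.5, 162 and 152 CPM in KO at day 0, and at 30.6, 43.0 and 21.1 CPM in WT and 40.6, 55.0 and 53.4 CPM in KO at day 3. It fell by 1.83 on the log2 scale in WT (SE 0.17, adjusted p = 2.44e-05 in edgeR) and by 1.58 in KO (SE 0.17, adjusted p = 3.64e-05). *Gli3* reached 70.9, 68.7 and 72.8 CPM in WT and 74.6, 69.5 and 86.0 CPM in KO at day 3. It rose by 0.75 (SE 0.13, adjusted p = 0.000785 in edgeR) in WT and by 1.64 (SE 0.13, adjusted p = 5.83e-06) in KO, where it started lower, and the levels at day 3 differed by 0.11 (SE 0.13) between the genotypes. *Gli2* at day 3 was higher in KO in 3 of 3 pairs, with a log2 fold change of 0.68 (SE 0.17), and 0.47 without WT replicate 3.

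*Boc* rose in WT to 4.62, 9.34 and 7.29 CPM (log2 fold change 1.50, SE 0.29, adjusted p = 0.00171 in edgeR). In KO it stood at 4.05, 5.80 and 3.83 CPM at day 3, overlapping its day 0 values, with a log2 fold change of 0.09 (SE 0.28, adjusted p = 0.813). At day 3 the level in KO was lower than in WT in 3 of 3 pairs with a log2 fold change of -0.63 (SE 0.28), although the groups overlapped. Without WT replicate 3 the differences at day 3 were -0.45 for *Boc*, 0.16 for *Smo*, 0.09 for *Gli3* and -0.16 for *Sufu*.

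The mean summed level of the feeder markers was lower at day 3 than at day 0 in both genotypes. The 10 markers summed to 291 to 796 CPM at day 0, to 206 to 424 CPM in WT EBs and to 66.8 to 115 CPM in KO EBs, and by edgeR 5 of the 9 tested fell and 0 rose in WT (25.5% and 30.7% of all tested genes), and 6 fell and 1 rose in KO (27.2% and 29.4%). The sums of WT overlapped between the days. The markers did not differ alike between the genotypes at day 3, where by edgeR 3 of the 9 were higher in KO and 2 lower (14.3% and 16.7% of all tested genes). *Vim* was at 155 to 309 CPM in WT EBs and 26.1 to 34.3 CPM in KO EBs. *Col3a1* (means of 6.30 in WT and 19.7 CPM in KO) and *Dcn* (0.964 and 5.59 CPM) went the other way. *Vim*, which other cells also express, made up the largest share (206 to 508 CPM at day 0), *Col1a1* lay between 30.1 and 149 CPM at day 0 and between 4.45 and 15.4 CPM at day 3, and *Lum* was at or below 0.326 CPM in every library. The part of feeder cells in the fall of the Hedgehog genes was not tested.

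Divided by exon length, the order of the genes can be compared within a group. In WT ESCs *Ptch1* was highest at 23.1 CPM per kb (range 18.5 to 26.7), followed by *Gli2* at 16.2 (14.2 to 19.8) and *Gli1* at 13.6 (13.1 to 14.0), and ranges of *Ptch1* and *Gli2*, which are neighbours in this order, overlapped. *Smo* at 6.85, *Sufu* at 5.42 and *Gli3* at 4.42 CPM per kb came next, and *Hhip* (0.796) and *Boc* (0.548) were low. In WT EBs *Smo* led at 25.1 CPM per kb (23.4 to 28.6), ahead of *Ptch1* at 9.57 (4.60 to 17.4), *Sufu* at 8.16 (7.25 to 8.69), *Gli3* at 7.38 (7.16 to 7.59) and *Gli2* at 4.60 (3.07 to 6.26). *Shh* at 1.65 (0.321 to 4.08), *Boc* at 1.59 (1.04 to 2.10) and *Gli1* at 1.41 (0.858 to 2.48) overlapped, and *Hhip* was at 0.114 CPM per kb. In KO EBs *Smo* (27.8) and *Ptch1* (16.1) again led and *Shh* had no counts.

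The genes whose profile was most like that of *Shh* were not members of the pathway. Likeness was the mean absolute difference between centred log2(CPM + 1) profiles over the 12 samples, computed for 14176 protein-coding genes. The nearest were *Hbb-bh1* (0.113), an embryonic globin, *Ptprb* (0.142) and *Cd93* (0.180), receptors found on endothelial cells, with *Vwa5b1* (0.176) and *Cfap44* (0.197). *Hbb-bh1* had 0.933, 0.481 and 11.5 CPM in WT day 3 replicates 1, 2 and 3 and no counts in all but 1 of the other 9 libraries. *Boc* was the nearest member at rank 3178, *Sufu* came at 4108 and *Gli3* at 6512, and *Ptch1* (13236), *Hhip* (13443), *Gli2* (13674) and *Gli1* (14098) were near the far end of the ranking. The profiles were centred but not scaled, and *Shh* was near 0 outside WT day 3. A gene that changes strongly between the days thus lies far from *Shh* and a steady gene nearer, whatever its relation to *Shh*. The libraries shared by all profiles, and the low counts of *Shh*, also make these distances a description.

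Beyond the 9 genes, 44 further genes of the pathway were listed, and 42 passed the filter, *Dhh* and *Olig2* being left out. In KO at day 3, 3 of the 42 rose and 15 fell by edgeR's quasi-likelihood test (14.3% and 16.7% of all tested genes), with a median log2 fold change of -0.30 against -0.002 for all tested genes. At day 0, 1 rose and 6 fell (9.56% and 10.9% of all), with a median of -0.12 against -0.01. From day 0 to day 3, 23 rose and 7 fell in WT (30.7% and 25.5% of all) and 16 rose and 6 fell in KO (29.4% and 27.2% of all), so that the shares that fell lay below those over all genes. Of the 42 genes, 5 passed the filter through libraries of 1 group alone (*Ihh*, *Foxf1*, *Nkx6-1* and *Hand2* in WT day 3, *Nkx2-9* in WT day 0), and in comparisons with that group the filter leaves such a gene only 1 direction in which it can be called. Among the other 37, 3 rose and 12 fell in KO at day 3, 1 rose and 6 fell at day 0, and 21 rose and 6 fell over time in WT. The effect of the KO differed between the days for 9 of the 42, 2 upward and 7 downward, against 8.21% and 7.34% of all tested genes. Several of these counts moved by more than 1.5 times with the fit or with 1 library. Without the replicate block 4 fell over time in WT. The count downward at day 3 was 9 without WT replicate 3 and 9 without KO replicate 3, and that upward over time in WT was 15 without WT day 3 replicate 3, while that downward was 4 without WT day 3 replicate 1. The count upward at day 0 was 0 without WT replicate 2 or 3 or KO replicate 3 and 2 without WT replicate 1. For the difference between days, 6 were called upward and 11 downward with the replicate block within each day, 5 were called upward without WT day 0 replicate 1, and 4 and 3 downward without KO day 0 replicate 2 and KO day 3 replicate 3.

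**Figure D4:**
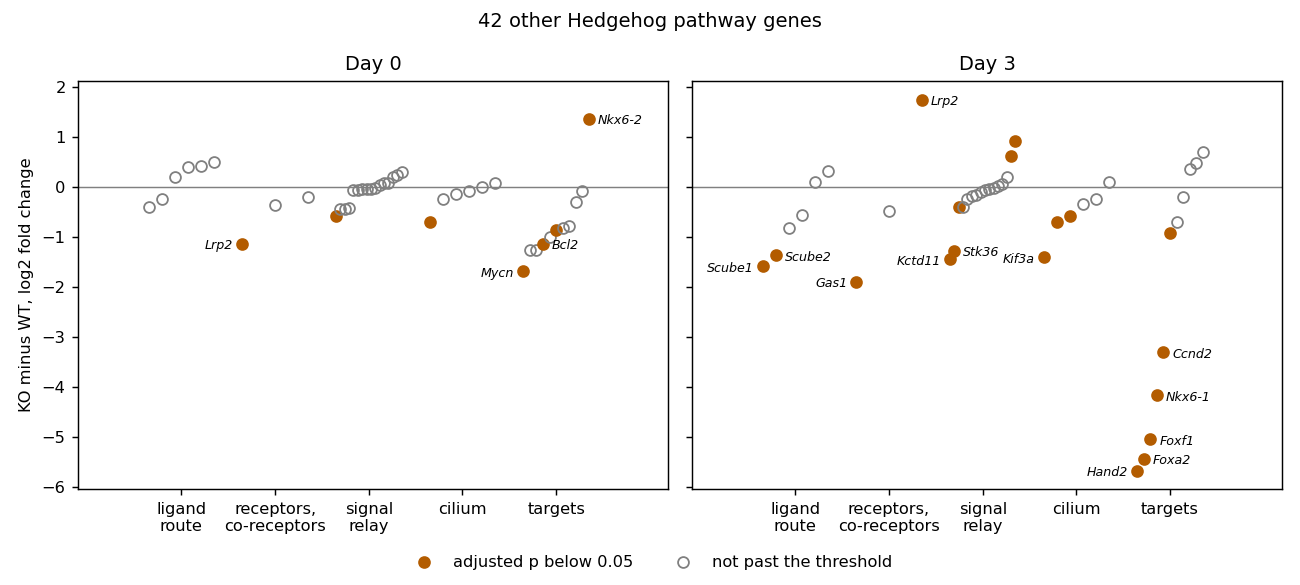
Fitted log2 fold changes (edgeR) of KO against WT at day 0 and day 3 for 42 further Hedgehog pathway genes by role, each point 1 gene, filled where the adjusted p was below 0.05, with names where the change also exceeded 1 in size. The filled points of day 3 reach -5.67 among the targets, for *Hand2*, which passed the filter through 1 library, whereas at day 0 they lie between -1.70 and 1.36.

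Of 3 co-receptors and endocytic receptors, *Lrp2* fell in KO at day 0 and 0 rose (10.9% and 9.56% of all tested genes). At day 3 *Lrp2* rose and *Gas1* fell (14.3% and 16.7% of all tested genes). *Gas1*, a co-receptor that raises the response to Shh, stood at 30.6, 38.8 and 31.5 CPM in WT EBs and 9.998, 8.76 and 8.24 CPM in KO EBs, a log2 fold change of -1.90 (SE 0.31, adjusted p = 0.00186 in edgeR). *Lrp2*, a large endocytic receptor that binds Shh in the forebrain, turned from a log2 fold change of -1.14 (SE 0.18, adjusted p = 0.00247 in edgeR) at day 0 to 1.74 (SE 0.18, adjusted p = 0.000202) at day 3. Its levels were 90.6, 112 and 114 CPM in WT EBs and 259, 362 and 476 CPM in KO EBs. In ESCs they were 108.5, 232 and 238 CPM in WT and 53.4, 77.1 and 133.5 CPM in KO, so that the genotypes overlapped.

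The route of the ligand was sparse. Of 7 genes 6 were tested, and 0 changed in KO at day 0 (20.4% of all tested genes in either direction). At day 3, 2 fell and 0 rose (16.7% and 14.3% of all tested genes). These were *Scube1*, which is named after its values were seen, and *Scube2*, both of which help release lipid-bearing Shh. The call of *Scube1* was lost without WT replicate 2 (adjusted p = 0.110 in edgeR) or 3 (0.152) or KO replicate 1 (0.0847), 2 (0.0765) or 3 (0.148). That of *Scube2* was lost without WT replicate 1 (0.0758) or 3 (0.251) or KO replicate 1 (0.104) or 3 (0.239), without the replicate block (0.0785), with limma-voom (0.0596) and with the 6 samples alone (0.0836). *Scube2* stood at 1.03, 1.01 and 3.48 CPM in WT and 0.3999, 1.08 and 0.583 CPM in KO at day 3, so that the genotypes overlapped. From day 0 to day 3 it fell in KO (log2 fold change -1.20, SE 0.46, adjusted p = 0.0454 in edgeR), a call lost without the replicate block (0.0930), with limma-voom (0.0514) and without KO day 0 replicate 1 (0.0985) or 2 (0.163) or KO day 3 replicate 1 (0.0992) or 3 (0.192). *Ihh*, the related Indian hedgehog ligand, lay between 0.0963 and 1.24 CPM in all libraries, with no change past the threshold in any comparison, so that it was present at low counts at day 0 in both genotypes.

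Of 16 genes that relay or restrain the signal, 1 fell in KO at day 0 and 0 rose (10.9% and 9.56% of all tested genes). At day 3 *Gpr161* and *Evc* rose and 3 fell, which is near the 14.3% and 16.7% of all tested genes. *Gpr161*, a ciliary receptor that restrains the pathway, stood at 13.3, 15.9 and 14.1 CPM in WT and 27.4, 27.8 and 27.6 CPM in KO (log2 fold change 0.92, SE 0.25, adjusted p = 0.0199 in edgeR). It missed the threshold without WT replicate 1 (0.0711) or 3 (0.0601) or KO replicate 2 (0.108) or 3 (0.0501). *Evc*, a ciliary partner of Smo, stood at 22.5, 23.3 and 22.9 CPM in WT and 34.1, 35.4 and 36.1 CPM in KO (log2 fold change 0.62, SE 0.13, adjusted p = 0.00690 in edgeR). The genes that fell, named after their values were seen, were *Spop* at day 0 (log2 fold change -0.59, adjusted p = 0.00516 in edgeR) and *Kctd11* (-1.45, adjusted p = 0.00252), *Stk36* (-1.28, adjusted p = 0.00139) and *Kif7* (-0.41, adjusted p = 0.0173) at day 3, of which *Kif7* missed the threshold without WT replicate 2 (0.0541) or 3 (0.0744) or KO replicate 2 (0.0832) or 3 (0.101).

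Of 6 genes of the cilium, in which the pathway signals, 3 fell in KO at day 3 and 0 rose (16.7% and 14.3% of all tested genes). *Kif3a*, a motor subunit for transport into the cilium, was at 39.5, 35.8 and 34.3 CPM in WT and 20.0, 23.4 and 23.6 CPM in KO at day 0, and at 61.8, 47.3 and 76.4 CPM in WT and 24.0, 21.1 and 24.2 CPM in KO at day 3. The groups did not overlap on either day, and the log2 fold changes were -0.71 (SE 0.15, adjusted p = 0.00876 in edgeR) and -1.41 (SE 0.15, adjusted p = 0.000202). *Arl13b*, a ciliary GTPase, and *Ift172*, part of the transport machinery, both named after their values were seen, fell at day 3 with log2 fold changes of -0.71 and -0.59 (adjusted p = 0.00263 and 0.00217 in edgeR). All 6 cilium genes rose from day 0 to day 3 in WT by edgeR, against 30.7% of all tested genes, and 3 of the 6 in KO, against 29.4%.

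Of 12 further targets 11 were tested, and at day 3 *Foxa2*, *Ccnd2* and *Bcl2* fell in KO among the 7 that passed the filter through libraries of more than 1 group, while 0 rose (16.7% and 14.3% of all tested genes). Another 3, *Foxf1*, *Hand2* and *Nkx6-1*, were called lower but passed the filter through WT day 3 replicate 3 alone, so that they could only be called in that direction. *Foxa2*, a factor of node, notochord and floor plate that is also in the axial list, stood at 88.8, 59.1 and 55.6 CPM in WT and 1.40, 1.19 and 2.16 CPM in KO (log2 fold change -5.44, SE 0.37, adjusted p = 2.2e-05 in edgeR). *Ccnd2*, a cyclin of the cell cycle, was at 73.6, 105 and 63.3 CPM in WT and 7.45, 8.13 and 8.49 CPM in KO (-3.31, SE 0.25, adjusted p = 4.46e-05). Without WT replicate 3 the change was -5.83 for *Foxa2* and -3.52 for *Ccnd2*, and likewise -2.01 for *Gas1*, 1.59 for *Lrp2* and -1.22 for *Kif3a*, all still called in edgeR. *Bcl2*, an inhibitor of cell death, was lower in KO on both days, with log2 fold changes of -1.14 at day 0 (adjusted p = 0.0217 in edgeR) and -0.93 at day 3 (adjusted p = 0.0149). Its call at day 0 was lost without WT replicate 3 (0.107) or KO replicate 1 (0.0655), 2 (0.0557) or 3 (0.0866), and at day 3 without WT replicate 2 (0.0584) or KO replicate 2 (0.0530) or 3 (0.0886).

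*Foxf1* and *Hand2*, factors of the lateral mesoderm, were high in 1 library only. *Hand2* had 0.0933, 0.0963 and 23.4 CPM in WT EBs and 0.1000, 0 and 0.167 CPM in KO EBs, and *Foxf1* had 0.187, 0.770 and 24.2 CPM against 0, 0.171 and 0.291 CPM. Their calls at day 3 (log2 fold changes -5.67 and -5.05, adjusted p = 0.0121 and 0.0163 in edgeR) rested on WT replicate 3, without which neither passed the filter, and without KO replicate 3 the adjusted p was 0.506 and 0.167. *Nkx6-1*, a factor of the ventral neural tube, was low, with 0.373, 0.626 and 1.05 CPM in WT and 0.1000, 0 and 0 CPM in KO, which is 2 counts in all (adjusted p = 0.00501 in edgeR), so that the size of its fitted fold change depends on the prior count of the fit, and it too was not tested without WT replicate 3. *Nkx2-9* passed the filter through WT day 0 alone, so that in WT over time it could only be called downward and its call is not read. It lay between 1.42 and 1.72 CPM at day 0 and between 0.0481 and 0.619 CPM at day 3 in WT (log2 fold change -2.46, SE 0.56).

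At day 0, 3 of the 11 tested targets fell in KO and 1 rose (10.9% and 9.56% of all tested genes). *Mycn*, a growth regulator that ESCs express strongly, was at 303, 225 and 301 CPM in WT and 129, 49.2 and 85.4 CPM in KO (log2 fold change -1.70, SE 0.28, adjusted p = 0.00314 in edgeR). *Ccnd2* fell by 0.88 (SE 0.22, adjusted p = 0.0216), a call lost without the block (0.0719) and without WT replicate 2 (0.0824) or 3 (0.0871) or KO replicate 1 (0.0744) or 2 (0.0793). *Nkx6-2*, a homeobox gene of the neural tube, rose, from 5.41, 4.07 and 4.44 CPM in WT to 9.30, 11.96 and 15.2 CPM in KO (log2 fold change 1.36, SE 0.30, adjusted p = 0.0111 in edgeR), although not without WT replicate 2 (0.0569) or 3 (0.0677) or KO replicate 3 (0.0697). Like *Gli1*, *Nkx6-2* fell to low levels in both genotypes at day 3, with log2 fold changes of -3.73 in WT and -4.40 in KO (adjusted p = 4.03e-05 and 7.05e-06 in edgeR).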

How the data were processed

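The authors used Cutadapt 1.3 for trimming, STAR 2.4.2a for alignment to GRCm38 and htseq-count (HTSeq 0.6.1) for counting. The deposited values are whole-number counts per gene and library, not normalized. Of all alignments, 36.5% to 44.1% were not unique and 6.88% to 10.04% lay in no gene or in more than 1, and these entries were left out. Symbols, positions and exon lengths came from GENCODE M21 (46005 of 46517 genes matched), and promoters from RefSeq.

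Genes above 1 CPM in at least 1 sample were fitted with edgeR 4.0.16 (R 4.3.3) by the quasi-likelihood test after TMM scaling, with 1 group per genotype and day over all 12 samples and the replicate number as a block, since a batch term is part of the study's methods. Benjamini-Hochberg adjustment was made over all tested genes, with a threshold of 0.05, and standard errors were derived from the log2 fold change and the F statistic. Libraries of WT and KO with the same number in the labels deviated together within a day (correlations of 0.455 to 0.688 at day 0 and 0.323 to 0.692 at day 3 over 12659 genes) but not between days (-0.217 to 0.0661). The block used here is shared over both days and does not match this pairing. The alternative with a block within each day does, and more genes passed the threshold at day 0 with it. No 2 replicates agreed within sampling noise.

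The members and lists were chosen with earlier results of these data known. Named beside the 9 genes were those further pathway genes with the largest called changes (up to 5 per direction for KO against WT, 3 for time), and the 5 protein-coding genes most like *Shh*. Beside the 44 further genes, 1 was left out of every list and count and is not reported here. The fit was tested on simulated data. Alternatives were no replicate block, a block within each day, RLE scaling, DESeq2 1.42.0, limma-voom (limma 3.58.1), 2 other filters, only the 6 samples compared, and each library left out. Tables and figures used Python 3.11.15, pandas 2.3.3, numpy 2.4.6 and matplotlib 3.10.9.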

Additional observations from a re-analysis of the deposited data

Results flagged for a closer look

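For 9 of the 42 further genes of the pathway the effect of the KO differed between the days by a test of the interaction of genotype and day in edgeR. Of these, 2 went upward and 7 downward, against 8.21% and 7.34% of all tested genes. Leaving out single libraries gave 2 to 5 upward and 3 to 8 downward. The log2 fold change of KO against WT at day 3 minus that at day 0 was 2.88 for *Lrp2* (adjusted p = 0.00036), -0.70 for *Kif3a* (adjusted p = 0.0479), -4.43 for *Foxa2* (adjusted p = 0.0025), 2.16 for *Mycn* (adjusted p = 0.00667) and -2.44 for *Ccnd2* (adjusted p = 0.00173). It was -0.70 for *Kif7* (adjusted p = 0.0138), -1.23 for *Stk36* (adjusted p = 0.0179), -0.51 for *Ift172* (adjusted p = 0.0379) and -0.79 for *Arl13b* (adjusted p = 0.0159 in edgeR), which are named after their values were seen. *Mycn* had a log2 fold change of -1.70 at day 0 and 0.47 (SE 0.28, adjusted p = 0.233 in edgeR) at day 3, and *Foxa2* had -1.01 (SE 0.49, adjusted p = 0.18 in edgeR) at day 0 and -5.44 at day 3.

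For 3 of the 9 genes of the main list, *Ptch1*, *Gli3* and *Boc*, every pair of the same replicate number went one way at day 0 and the other way at day 3. The genotypes overlapped for *Ptch1* on both days and for *Gli3* and *Boc* at day 3. The log2 fold change of KO against WT was -0.50 at day 0 and 0.84 at day 3 for *Ptch1*, -0.78 and 0.11 for *Gli3*, and 0.78 and -0.63 for *Boc*. These differences between the days were not tested.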

How the results depend on the processing

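The cause of the changes below was not tested, except that fits without a library hold fewer samples. The fit without the replicate block changed no call of the 8 tested genes (*Hhip* at day 0 had a log2 fold change of -1.88 and *Gli3* one of -0.79). Of the 42 further pathway genes it called 4 downward in WT over time, fewer than the 7 of the main fit, and it gave 0.13 for *Foxf1* at day 0. With the block within each day, *Ptch1* in KO over time was 0.00, *Hhip* (-1.87) and *Boc* (0.82) at day 0 passed, *Foxf1* at day 0 was 0.14 and *Hand2* in KO over time -2.59, and further genes called were 4 upward at day 0, 5 upward at day 3, and 6 upward and 11 downward for the difference between days. With only the 6 samples compared, *Ptch1* (-0.53), *Gli2* (0.43), *Hhip* (-1.87) and *Boc* (0.82) at day 0 passed, *Ptch1* in KO over time was 0.01, *Sufu* in WT over time (0.57) missed the threshold, and further genes called were 5 upward at day 0, 5 upward at day 3, and 14 upward and 4 downward in WT over time. DESeq2 gave *Hhip* at day 0 as -1.88, 2 genes upward at day 0 and 4 upward for the difference between days, limma-voom gave *Hhip* as -1.87 at day 0 and -1.96 in KO over time, *Ptch1* in KO over time as 0.00 and *Foxf1* at day 0 as 0.34, no filter gave *Hhip* at day 0 as -1.90, and at least 10 counts in every sample left 0 genes upward at day 0 and 9 downward at day 3.

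Leaving out each library gave log2 fold changes at day 0 of -2.37 to -1.49 for *Hhip*, 0.51 to 1.17 for *Boc*, -0.07 to 0.34 for *Smo*, -0.20 to 0.35 for *Gli1*, -0.31 to 0.07 for *Sufu*, -0.66 to 0.31 for *Gas1*, -0.29 to 0.18 for *Gpr161*, -0.08 to 0.19 for *Evc*, -2.21 to 1.53 for *Foxf1* and -5.04 to 2.26 for *Hand2*. At day 3 it gave 0.45 to 1.56 for *Ptch1*, 0.08 to 0.24 for *Smo*, -1.66 to 0.65 for *Hhip*, -0.16 to 0.20 for *Sufu* and -0.75 to 0.73 for *Nkx2-9*. Over time it gave -2.08 to -0.96 for *Ptch1* and 0.44 to 0.81 for *Sufu* and -0.12 to 1.06 for *Scube2* in WT, and -0.36 to 0.48 for *Ptch1*, -2.67 to -1.72 for *Hhip*, -0.02 to 0.13 for *Boc*, -0.07 to 0.16 for *Kif3a*, -2.64 to 0.36 for *Foxf1* and -2.72 to 4.13 for *Hand2* in KO. Counts of further genes ranged from 0 to 2 upward at day 0, 9 to 15 downward at day 3, 15 to 20 upward and 4 to 7 downward in WT over time, and 2 to 5 upward and 3 to 8 downward for the difference between days.

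Of the values of the 8 genes under all alternatives, 401 kept direction and side of the threshold, 15 lost and 11 gained the call, 14 changed sign and 3 moved by more than the spread between pairs. *Shh* and *Hhip* at day 3 rest on few counts, and with 3 samples a group small changes are not detectable.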
